A study of Homo sapiens with 8 samples.

Results

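The genes described here encode the nucleolar machinery that makes ribosomes, together with RNA polymerase I (Pol I). They were chosen by name, as a list of 55 genes drawn up with earlier results of these data known. The direction of their changes is therefore not independent evidence. Each gene was read at the array probe sets that carry its symbol alone. Of the 55 genes, 51 could be read and tested among 15226 genes in all, at 125 of the 38748 tested probe sets. RNA came from MIA PaCa-2 cells, an established line from a human pancreatic carcinoma that is resistant to gemcitabine. The cells had been exposed for 24 h to 30 μM pachymic acid (PA), a triterpenoid of the fungus Poria cocos, on 4 arrays, or to DMSO, the solvent in which PA was dissolved (control, 0 μM PA), on 4 arrays. Each value is a log2 signal of 1 probe set on a 3′ expression array, so a difference of 1 is a doubling. The sources used here do not say whether the 4 samples of a group were separate cultures, so every p-value refers to the spread among these 8 samples, which may be technical.

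Ribosomes are assembled in the nucleolus. Pol I transcribes the ribosomal RNA (rRNA) genes into a long precursor, small nucleolar ribonucleoproteins (snoRNPs) guide the chemical modification of that precursor, and assembly factors cut, fold and pack it into a small and a large subunit. Growing tumour cells make ribosomes at a high rate, and the genes of this machinery are a known class of targets of the transcription factor MYC. The 55 genes were divided by these roles into Pol I and its initiation factors (7 genes), snoRNP proteins (8), small subunit processing factors (16), large subunit processing factors (21) and general nucleolar proteins (3).

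The signals of most of these genes were higher in PA-treated cells than in control cells, by small amounts. Of the 51 genes, 32 rose at an adjusted p under 0.05 (limma, Benjamini-Hochberg over all genes), 0 fell and 19 did not pass. That is 62.7% of the members raised, against 9.69% raised and 11.9% lowered among all genes tested. The 32 rises lay between 0.15 and 0.55 on the log2 scale (1.11- to 1.46-fold), with a median of 0.30 (1.23-fold), and 0 members reached 1.5-fold, against 0.466% of all genes raised and 0.709% lowered by that much. The median change was 0.24 over the 51 members and 0.015 over all genes, and 47 members had a positive change, 3 a negative one and 1 (NCL) a change of 0. In bulk RNA a change in mRNA per cell and a change in the mix of cells cannot be told apart. The GC-rich background signal of the arrays was also higher on average with PA, with overlap between the groups (exact two-sided permutation p = 0.0571), as described below. With it as a covariate in limma 6 members rose, against 1.56% of all genes.

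**Figure D1:**
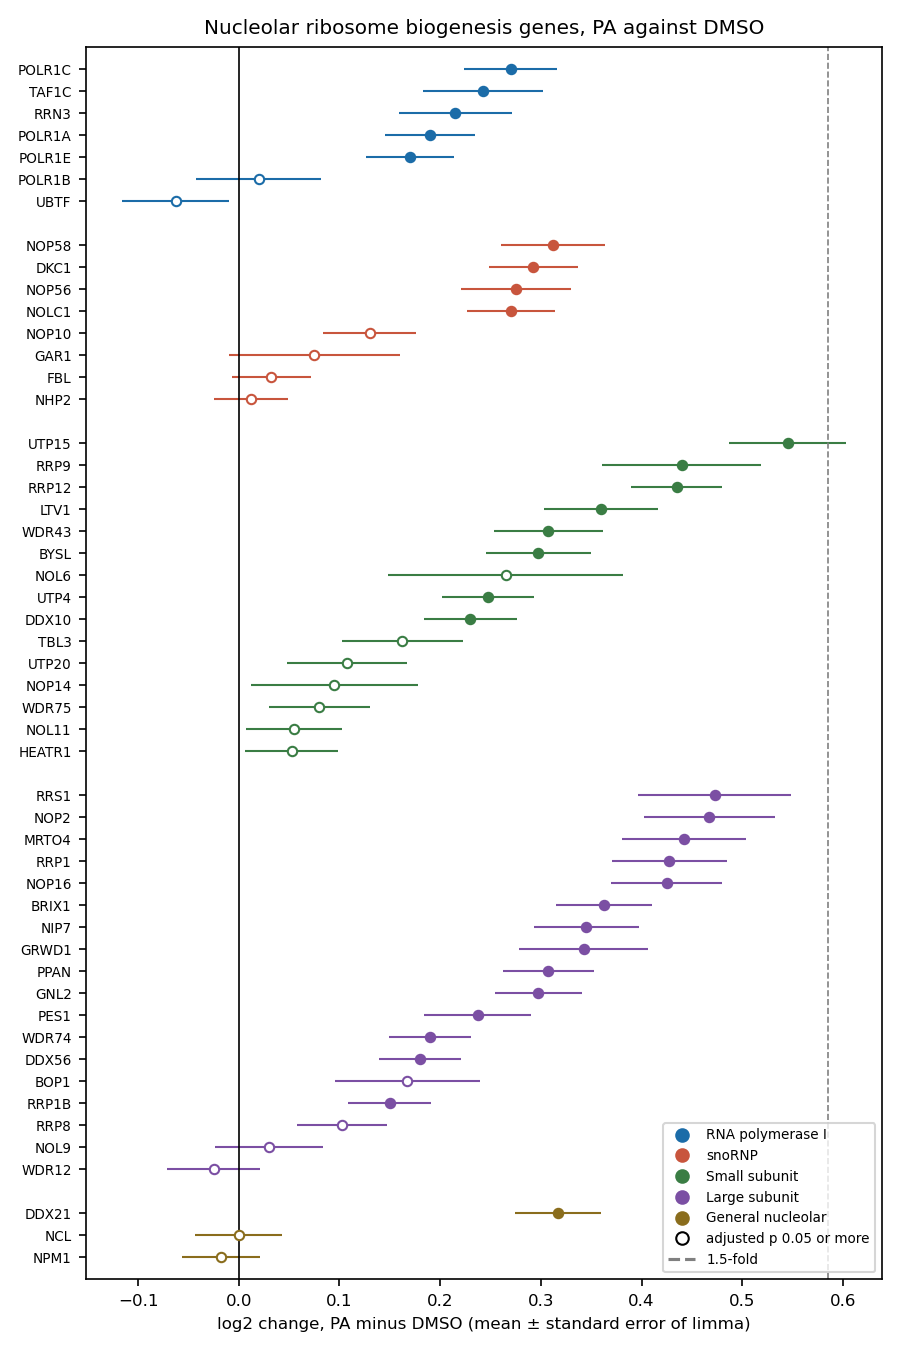
Change of each of the 51 measured genes, PA minus control, on the log2 scale (horizontal axis) with its standard error, by role; filled points passed at an adjusted p under 0.05 and the dashed line marks 1.5-fold. The filled points, 32 in all, lie between 0.15 and 0.55, and UTP15 is the farthest to the right.

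Promoter windows were looked up because the members moved together. RefSeq windows on GRCh38.p14, from 250 bases before to 50 after the transcription start in the direction of the gene, were at hand for 47 of the 55 members. They were searched for CACGTG, the E-box that MYC and MAX and many related factors can bind and which reads the same on both strands. The motif was present in 19 of 47 members (40.4%), against 8.77% of all 27305 genes with a window, 11.6% of the 12209 tested genes and 7.26% of all 35116 windows. It was present in 10 of 26 members that rose (38.5%) and in 6 of 18 that did not pass (33.3%), a difference that was not tested. Among all tested genes with a window, 14.6% of those that rose and 12.2% of those that fell held it. By role it was found in 9 of 15 small subunit factors, 6 of 17 large subunit factors, 3 of 6 snoRNP genes, 1 of 3 general nucleolar genes and 0 of 6 Pol I genes. In the members 14 of 21 matches (66.7%) lay after the start, against 11.1% of 2821 matches over all windows. A match is a description of the letters and not a measured binding site.

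The windows below were picked among raised members that hold the motif, by the smallest adjusted p within their role. They are shown because each carries the E-box close to the start. UTP15, NOP16, BRIX1 and RRP1 had smaller adjusted p-values (limma) than the members shown from their roles, and their windows hold no match. The other window of DDX21 holds none either. Capitals mark CACGTG. LTV1 lies on the plus strand at chr6:143843088-143843387 with the motif from base 29 after the start, and BYSL on the plus strand at chr6:41921249-41921548, also from base 29. NOP2 lies on the minus strand at chr12:6568242-6568541 with the motif from base 36, and MRTO4 on the plus strand at chr1:19251555-19251854 with the motif from base 15. DDX21 lies on the plus strand at chr10:68956397-68956696, and its motif lies before the start, from base -31. The sequences run 5′ to 3′ in the direction of the gene.
LTV1: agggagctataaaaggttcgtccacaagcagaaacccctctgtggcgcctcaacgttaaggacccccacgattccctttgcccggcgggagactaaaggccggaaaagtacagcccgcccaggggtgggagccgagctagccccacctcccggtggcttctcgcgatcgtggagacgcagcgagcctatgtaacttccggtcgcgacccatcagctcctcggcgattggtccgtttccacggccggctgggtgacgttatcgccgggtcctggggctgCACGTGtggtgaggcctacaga
BYSL: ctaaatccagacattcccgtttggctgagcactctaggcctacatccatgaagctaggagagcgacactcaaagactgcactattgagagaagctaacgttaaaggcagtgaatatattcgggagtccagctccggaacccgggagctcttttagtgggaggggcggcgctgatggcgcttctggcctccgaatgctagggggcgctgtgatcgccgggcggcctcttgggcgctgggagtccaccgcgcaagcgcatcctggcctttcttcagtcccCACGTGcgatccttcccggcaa
NOP2: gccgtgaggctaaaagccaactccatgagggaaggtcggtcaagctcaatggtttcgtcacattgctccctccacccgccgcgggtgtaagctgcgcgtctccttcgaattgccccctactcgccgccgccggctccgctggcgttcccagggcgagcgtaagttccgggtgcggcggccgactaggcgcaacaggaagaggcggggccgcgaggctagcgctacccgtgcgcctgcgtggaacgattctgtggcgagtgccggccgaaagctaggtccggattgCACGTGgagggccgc
MRTO4: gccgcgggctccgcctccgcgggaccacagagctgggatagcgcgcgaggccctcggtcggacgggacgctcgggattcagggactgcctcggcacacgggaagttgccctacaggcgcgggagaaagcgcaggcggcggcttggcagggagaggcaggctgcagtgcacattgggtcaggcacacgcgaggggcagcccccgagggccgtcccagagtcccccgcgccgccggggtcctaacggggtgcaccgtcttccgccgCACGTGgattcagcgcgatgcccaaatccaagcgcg
DDX21: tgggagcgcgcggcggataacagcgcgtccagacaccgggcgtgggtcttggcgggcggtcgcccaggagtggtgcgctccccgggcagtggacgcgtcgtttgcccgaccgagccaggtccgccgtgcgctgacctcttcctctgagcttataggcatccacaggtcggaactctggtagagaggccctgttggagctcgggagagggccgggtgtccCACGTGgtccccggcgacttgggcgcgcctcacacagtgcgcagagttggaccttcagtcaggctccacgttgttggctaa

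Pol I is the enzyme that reads the rRNA genes. In its group 5 of 7 members rose (median 0.19), against 9.69% of all genes. POLR1C, a subunit shared by Pol I and Pol III, gave 9.62, 9.59, 9.61 and 9.49 in the PA arrays and 9.27, 9.28, 9.32 and 9.36 in the control arrays. Its change was 0.27 (SE 0.046, adjusted p = 0.00455, limma), and the lowest PA array stood above the highest control array. POLR1A, the largest catalytic subunit, gave 8.70, 8.71, 8.62 and 8.65 with PA and 8.51, 8.41, 8.52 and 8.48 in control, a change of 0.19 (SE 0.044, adjusted p = 0.0167, limma), again without overlap. TAF1C, a part of the SL1 complex that marks the rRNA promoter, gave 7.26, 7.36, 7.38 and 7.15 with PA and 7.04, 7.02, 7.0 and 7.12 in control. The groups did not overlap, but PA 4 and control 4 lay only 0.03 apart, and the change was 0.24 (SE 0.060, adjusted p = 0.0205, limma). POLR1E, a Pol I subunit outside the catalytic core, gave 9.51, 9.48, 9.44 and 9.40 with PA and 9.27, 9.34, 9.29 and 9.25 in control, a change of 0.17 (SE 0.043, adjusted p = 0.0240, limma), with no overlap. RRN3, the initiation factor that brings Pol I to the promoter, also rose (change 0.22, adjusted p = 0.0256, limma). The remaining members did not pass: UBTF, which binds and opens the rRNA genes, changed by -0.06, and POLR1B, the other large catalytic subunit, by 0.02. The other probe sets of UBTF changed by 0.08, 0.12 and 0.04, and none passed.

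Apart from POLR1C, the Pol I calls lay close to the threshold, and some were lost with 7 arrays while the changes moved little. Without PA 2 the count of raised genes in the group was 1 (POLR1C), and without PA 3, control 2 or control 4 it was 3. POLR1A did not pass without PA 2 (adjusted p = 0.0519), TAF1C not without PA 2, PA 3 or control 2 (0.0590, 0.0532 and 0.0534), and POLR1E not without PA 1, PA 2, control 1 or control 4 (0.0564, 0.0660, 0.0567 and 0.0563), all by limma. RRN3 did not pass without any 1 of PA 2, PA 3, PA 4, control 2, control 3 and control 4 (0.0503 to 0.0708, limma). Over all 8 such fits the change was 0.17 to 0.21 in POLR1A, 0.21 to 0.29 in TAF1C, 0.15 to 0.19 in POLR1E and 0.19 to 0.26 in RRN3.

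The snoRNP proteins were bright on the array (median signal 12.37 with PA and 12.07 in control), and 4 of 8 rose, against 9.69% of all genes (median 0.20). DKC1, dyskerin, the pseudouridine synthase of the box H/ACA snoRNPs, gave 12.46, 12.47, 12.41 and 12.41 with PA and 12.12, 12.08, 12.18 and 12.20 in control. The arrays of both groups were well separated, and the change was 0.29 (SE 0.044, adjusted p = 0.00262, limma). The other core proteins of that class did not pass: NOP10 changed by 0.13, GAR1 by 0.08 and NHP2 by 0.01. NOP10 nonetheless had every PA array above every control array and passed without control 1 (adjusted p = 0.0425, limma). GAR1 had 1 high control array (10.53 in control 2, against 10.10 to 10.22 in the other controls), and its other probe set rose by 0.33.

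Of the box C/D core, which directs methylation of rRNA, NOP58 and NOP56 rose and FBL did not pass. NOP58 gave 12.29, 12.42, 12.46 and 12.33 with PA and 12.11, 12.05, 12 and 12.09 in control, a change of 0.31 (SE 0.052, adjusted p = 0.00399, limma). NOP56 gave 12.44, 12.41, 12.29 and 12.30 with PA and 12.06, 12, 12.14 and 12.14 in control, a change of 0.28 (SE 0.055, adjusted p = 0.00866, limma). Neither gene overlapped between groups. FBL, fibrillarin, the methyltransferase of these particles, averaged 12.62 ± 0.010 with PA and 12.58 ± 0.038 in control (SD, n = 4 each), a change of 0.03. NOLC1, a chaperone of snoRNPs, gave 12.26, 12.32, 12.29 and 12.26 with PA and 11.99, 12.03, 11.95 and 12.08 in control, a change of 0.27 (SE 0.044, adjusted p = 0.00368, limma), and its other probe sets rose by 0.55 and 0.49.

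**Figure D2:**
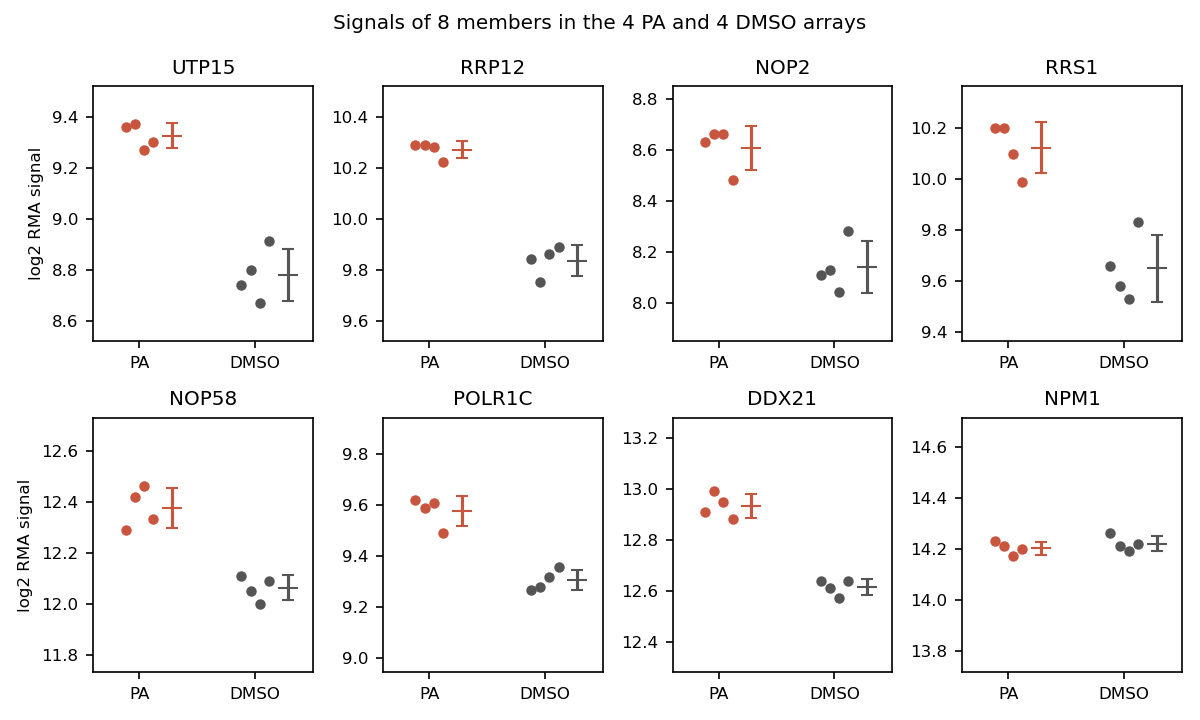
Log2 signals of 8 members in each array, with PA left of control in each panel; points are single arrays and bars show the mean ± SD (n = 4 each). UTP15, RRP12, NOP2, RRS1, NOP58, POLR1C and DDX21 do not overlap between groups, and NPM1 does.

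Among the small subunit processing factors 8 of 15 measured genes rose, against 9.69% of all genes (median 0.25). Read at the brightest probe set of each gene, the widest change of the members was that of UTP15, a protein of the UTP-A complex that is loaded early on the nascent precursor. UTP15 gave 9.36, 9.37, 9.27 and 9.30 with PA and 8.74, 8.80, 8.67 and 8.91 in control, a change of 0.55 or 1.46-fold (SE 0.058, adjusted p = 0.000661, limma). Its other 2 probe sets rose by 0.31 each. By the mean of a gene's probe sets NOP16 (0.49), NOLC1 (0.44), NOP2, RRP12 and LTV1 changed more than UTP15 (0.39). So did RRS1 (0.47) and RRP9 (0.44), which have 1 probe set each. RRP12, needed in yeast for export of both subunits, gave 10.29, 10.29, 10.28 and 10.22 with PA and 9.84, 9.75, 9.86 and 9.89 in control. Its change was 0.44 (SE 0.045) and its adjusted p the smallest of the members (0.000611, limma). LTV1, which rides on the late small subunit precursor, gave 9.62, 9.73, 9.63 and 9.63 with PA and 9.32, 9.28, 9.17 and 9.40 in control, a change of 0.36 (SE 0.057, adjusted p = 0.00325, limma). BYSL, bystin, a further late factor, gave 8.42, 8.28, 8.33 and 8.29 with PA and 7.95, 8.09, 8.0 and 8.09 in control, a change of 0.30 (SE 0.052, adjusted p = 0.00506, limma). None of these 4 genes overlapped between groups.

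The remaining raised genes of the group were RRP9 (0.44), a protein of the U3 snoRNP, WDR43 (0.31) and UTP4 (0.25), both of the UTP-A complex, and the RNA helicase DDX10 (0.23). UTP-A was thus raised at 3 of its 6 members, UTP15, WDR43 and UTP4, while WDR75 changed by 0.08, NOL11 by 0.06 and HEATR1 by 0.05 without passing. WDR43 rose at the probe set that stands for the gene, and its other probe set changed by 0.06. NOL6 changed by 0.27 without passing, with the largest standard error of the members (0.12), and 2 of its 6 probe sets rose. TBL3, of the UTP-B complex, changed by 0.16 and passed without PA 1 (adjusted p = 0.0396, limma), UTP20 by 0.11 and NOP14 by 0.10. PWP2, another UTP-B protein, was not read as a gene, since the probe set that reads it carries a further symbol.

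Among the large subunit processing factors 14 of 18 measured genes rose, against 9.69% of all genes, with a median of 0.30. Counted by any probe set it was 15 of 18, against 6 of 7 in the Pol I group, and the differences between roles were not tested. A count by any probe set grows with the number of probe sets of a gene (6 for POLR1B). Its share over all genes was not computed. NOP16 gave 11.32, 11.38, 11.36 and 11.26 with PA and 11.02, 10.87, 10.81 and 10.92 in control, a change of 0.43 (SE 0.055, adjusted p = 0.00146, limma). BRIX1, which in yeast joins the early large subunit precursor, gave 11.75, 11.69, 11.67 and 11.66 with PA and 11.34, 11.25, 11.32 and 11.41 in control, a change of 0.36 (SE 0.047, adjusted p = 0.00153, limma). RRP1 gave 8.61, 8.53, 8.62 and 8.46 with PA and 8.05, 8.07, 8.17 and 8.22 in control, a change of 0.43 (SE 0.057, adjusted p = 0.00162, limma). NOP2, an rRNA cytosine methyltransferase, gave 8.63, 8.66, 8.66 and 8.48 with PA and 8.11, 8.13, 8.04 and 8.28 in control, a change of 0.47 (SE 0.065, adjusted p = 0.00188, limma). In each of these genes the lowest PA array lay above the highest control array, and in BRIX1, RRP1 and NOP2 that gap was between PA 4 and control 4. The probe sets of NOP2 were alike, with changes of 0.47, 0.44 and 0.44, whereas those of RRP1 changed by 0.43, 0.24 and 0.07 and only the first of them passed.

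RRS1 (0.47), which in yeast helps to bring in the 5S RNA particle, and MRTO4 (0.44), which holds the place of the ribosomal stalk, lay with NOP2, RRP1 and NOP16 at the upper end of the group's changes. NIP7 rose by 0.35, GRWD1 by 0.34, PPAN by 0.31, the GTPase GNL2 by 0.30, WDR74 by 0.19, the helicase DDX56 by 0.18 and RRP1B by 0.15. WDR74 rose at 1 of its 3 probe sets, and the others changed by 0.13 and -0.17 without passing. RRP1B was the weakest call, and it was lost without any 1 of PA 1, PA 2, PA 3, control 1, control 2 and control 3 (adjusted p = 0.0572 to 0.0887, limma), while its change over all 8 such fits was 0.14 to 0.17. Of the PeBoW complex, which acts in the making of the large subunit rRNAs, PES1 rose (0.24), BOP1 changed by 0.17 without passing and WDR12 by -0.03. BOP1 passed without PA 3 (adjusted p = 0.0415, limma), and WDR12 did not pass at any of its 3 probe sets. RRP8, an rRNA adenine methyltransferase, changed by 0.10 at the probe set that stands for it and rose by 0.44 at its other probe set, and NOL9, an RNA kinase, changed by 0.03.

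The general nucleolar proteins behaved unlike one another. DDX21, an RNA helicase of rRNA transcription and processing, gave 12.91, 12.99, 12.95 and 12.88 with PA and 12.64, 12.61, 12.57 and 12.64 in control, a change of 0.32 without overlap (SE 0.043, adjusted p = 0.00165, limma). NPM1, nucleophosmin, a histone and ribosome chaperone, gave 14.23, 14.21, 14.17 and 14.20 with PA and 14.26, 14.21, 14.19 and 14.22 in control, a change of -0.02 (SE 0.039, adjusted p = 0.779, limma), and 0 of its 6 probe sets passed. NCL, nucleolin, gave 13.31, 13.43, 13.37 and 13.37 with PA and 13.39, 13.40, 13.32 and 13.37 in control, a change of 0.00 (SE 0.043, adjusted p = 1, limma). The other probe set of NCL changed by 0.14 without passing, with every PA array above every control array. The highest signal on any array was 14.58 to 14.62, so NPM1 lay near the top of the scale, and whether signals there understate a change was not tested.

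**Figure D3:**
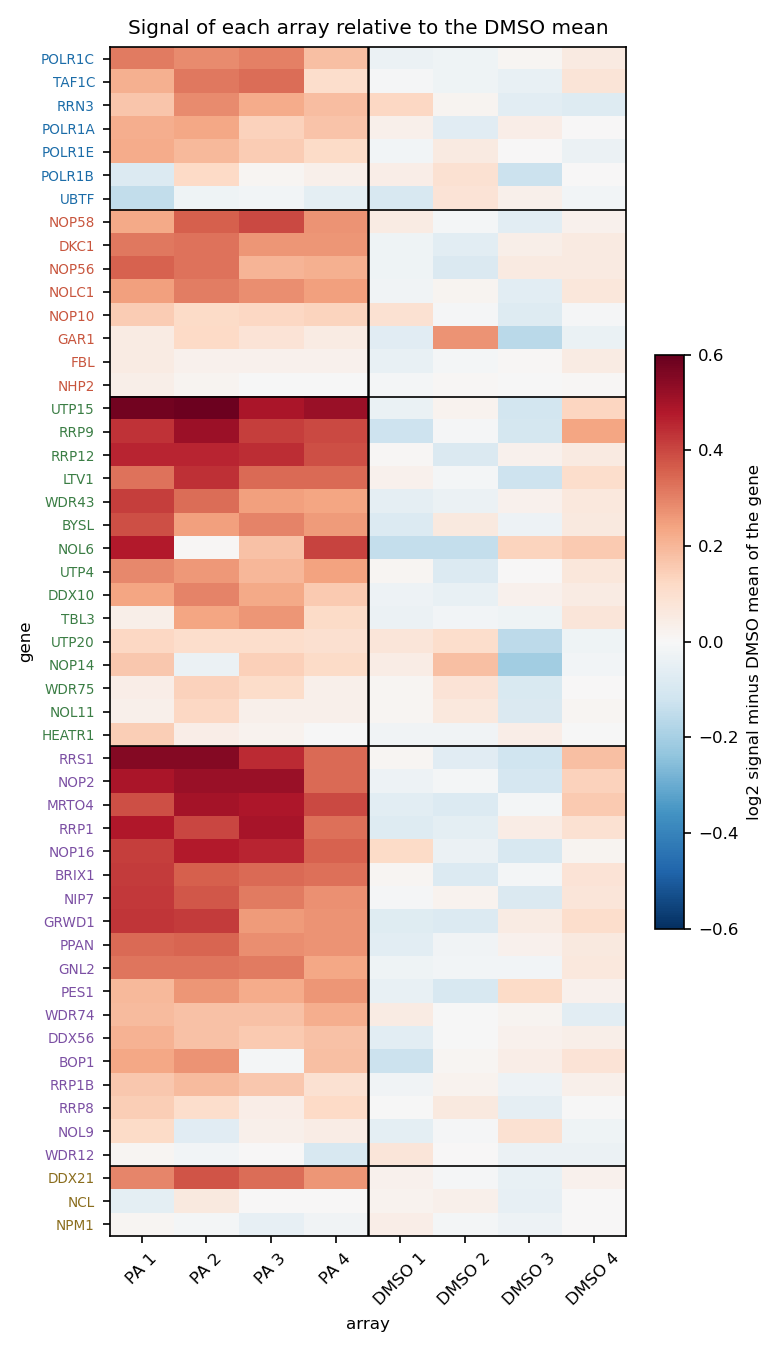
Signal of each of the 51 members in each of the 8 arrays, with PA left of control, as the log2 difference from the mean of the 4 control arrays (colour scale). The PA columns are above the control mean in most genes, and control 4 is the highest control array in 25 of the 32 raised genes.

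Seen by array, the mean signal over the 51 members was 10.00, 10.01, 9.98 and 9.95 in PA 1 to 4, against 9.75, 9.76, 9.73 and 9.80 in control 1 to 4. The groups did not overlap, and the mean of the 4 arrays was 9.98 ± 0.026 with PA and 9.76 ± 0.031 in control (SD, n = 4 each). PA 4 was the lowest PA array in 19 of the 32 raised genes and PA 2 the highest in 18, while control 4 was the highest control array in 25. Every PA array lay above every control array in 33 of 51 members (the 32 raised genes and NOP10), and below in 0, against 11.9% of all genes above and 14.5% below. Leaving out each array in turn gave 27 to 31 raised members, and 27 of the 32 passed in all 8 such fits; the others were POLR1A, POLR1E, TAF1C, RRN3 and RRP1B. The members had mean signals of 6.65 to 14.21, with a median of 9.89, against a median of 7.21 over all genes. Among all genes with a mean signal of at least 8, 13.8% rose and 18.4% fell.

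Read probe set by probe set, 67 of 125 probe sets of members rose and 0 fell, against 8% raised and 9.07% lowered among all tested probe sets. Of the 38 members with more than 1 tested probe set, 0 had probe sets called in opposite directions, 14 rose at every probe set, 15 at some and 9 at none. LTV1 and BRIX1 rose at each of 4 probe sets, and UTP15, RRP12, NOP2, DDX21, GRWD1, NOLC1 and RRN3 at each of 3. By role 25 of 37 probe sets of the large subunit factors rose, 17 of 34 of the small subunit factors, 11 of 18 of the snoRNP proteins, 11 of 25 of Pol I and 3 of 11 of the general nucleolar proteins. The probe set that stands for a gene therefore hides part of the record where probe sets differ: 1 of 6 probe sets of POLR1B rose (0.28), although the brightest changed by 0.02.

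**Figure D4:**
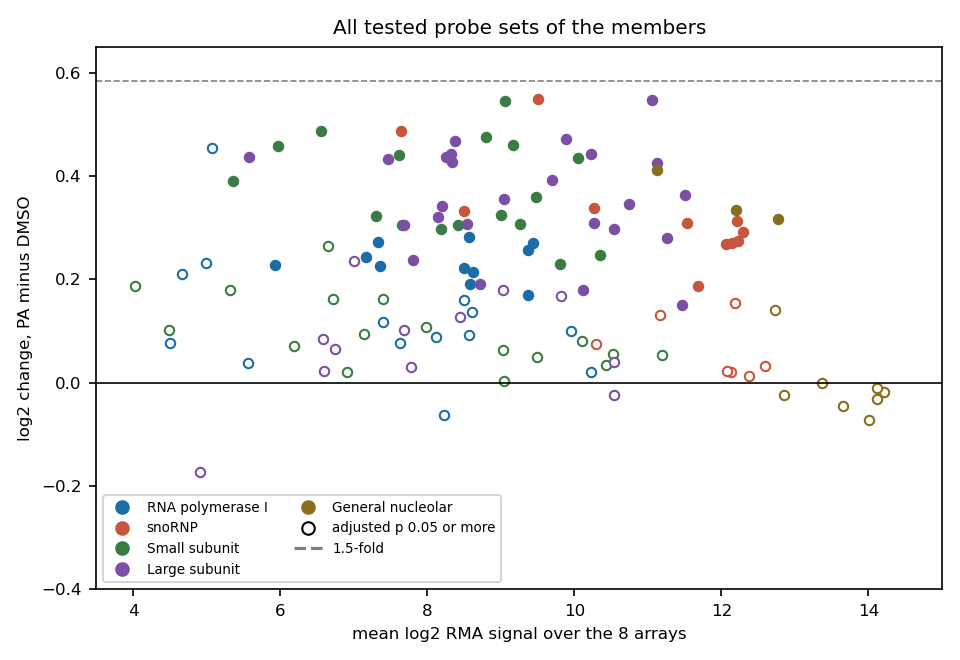
Change of the 125 probe sets of the members, PA minus control on the log2 scale (vertical axis), against their mean log2 signal over the 8 arrays (horizontal axis); filled points passed at an adjusted p under 0.05. The raised probe sets are spread over the range of signals up to that of DDX21, and the 6 probe sets of NPM1 lie at the bright end close to 0.

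A total of 4 listed genes were not read as genes. GNL3, EBNA1BP2 and DDX18 have no probe set under these names in the annotation used here. PWP2 shares its probe set with LOC102724159. That shared probe set gave 10.30, 10.30, 10.21 and 10.13 with PA and 9.84, 9.85, 9.93 and 10.04 in control, without overlap, a change of 0.32 (adjusted p = 0.0104, limma over probe sets), and which of both genes it reads cannot be told. A further 5 probe sets of members (2 of HEATR1 and 1 each of BYSL, NOL6 and NOP16) had group means under 4 and were not tested.

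The rest of the pathway was read from other lists of genes, none of which shares a gene with the members. These lists too were drawn up with earlier results of these data known. Among all genes tested 9.69% rose and 11.9% fell. Of 38 measured further small subunit factors 18 rose (47.4%) and 0 fell (median 0.14). The widest were EMG1 (0.36), an rRNA methyltransferase, and PNO1 (0.34), which in yeast binds close to the end of the small subunit RNA. Of 38 further large subunit factors 16 rose (42.1%) and 0 fell (median 0.15), led by LYAR (0.42) and URB2 (0.39). Of 13 further Pol I genes 2 rose (15.4%, against 9.69% of all genes), TAF1A of SL1 (0.30) and the subunit POLR1F (0.24), and 0 fell (median 0.07). Of 12 genes of the RNA exosome, which trims rRNA precursors, 5 rose (41.7%) and 0 fell (median 0.09), led by EXOSC4 (0.38) and EXOSC2 (0.33).

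The proteins of the ribosome itself gave other counts. Of 65 measured cytosolic ribosomal protein genes 1 rose (RPL35A, 0.19), 1 fell (RPL38, -0.17) and 63 did not pass, with a median of -0.01. That is 1.54% raised and 1.54% lowered, against 9.69% and 11.9% of all genes. These genes had a median mean signal of 14.02, close to the highest signals on the arrays. Of 74 mitochondrial ribosomal protein genes (median 0.04) 12 rose (16.2%) and 2 fell (2.70%), against 9.69% and 11.9% of all genes. MRPL14 (0.26) and MRPL36 (0.23) had the widest changes among those called. The difference between these lists and the members was not tested. CACGTG was found in the promoter windows of 34.4% of the further small subunit factors and 38.2% of the further large subunit factors. It was in 13% of the mitochondrial and 6.35% of the cytosolic ribosomal protein genes, 10% of the exosome genes and 8.33% of the further Pol I genes. Of 2 lists described under the other observations, 3 of 7 Pol III genes (42.9%) and 3 of 8 MYC network genes (37.5%) held it. In those lists 2 of 9 and 0 of 9 measured genes rose, against 9.69% of all genes.

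**Figure D5:**
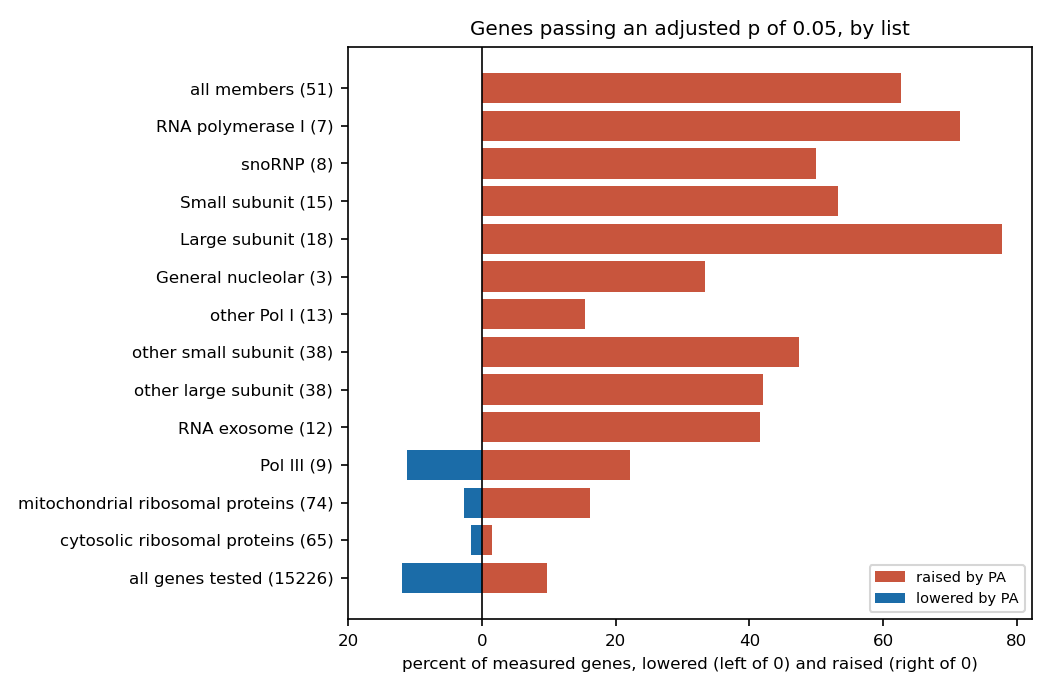
Percent of the measured genes of each list that rose or fell at an adjusted p under 0.05 (horizontal axis), for the 5 roles of the members, the other lists of the pathway and all genes tested. The large subunit factors have the highest percent raised, and the cytosolic ribosomal proteins lie below all genes.

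Some measures that the members do not set were higher on average with PA. The mean signal of 8 control probe sets for GC-rich background was 7.12, 7.02, 6.92 and 7.05 with PA and 6.70, 6.59, 6.95 and 6.83 in control (7.03 ± 0.082 and 6.77 ± 0.15, SD, n = 4 each, exact two-sided permutation p = 0.0571). With that mean as a covariate in limma 6 members rose, UTP15, RRP12, NOP2, NOP16, NOP58 and DDX21, against 1.56% of all genes. In that fit the median change of the 51 members was 0.21, 46 of them were positive, and the standard errors were larger by a median factor of 1.46. Control 3 was the only control array with a background above that of a PA array (PA 3), and the part of the background in the members' changes was not tested further. The hybridization controls, which are added to the sample, were 11.02 ± 0.043 with PA and 10.94 ± 0.022 in control (exact two-sided permutation p = 0.0286, the smallest p that 4 against 4 arrays can give).

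The array also carries control probe sets for rRNA, the product of Pol I. For 28S rRNA the middle probe set gave 11.65, 11.52, 11.66 and 11.48 with PA and 10.99, 10.83, 10.96 and 11.03 in control, a difference of 0.63 (exact two-sided permutation p = 0.0286). The 5′ probe set of 28S rRNA was 12.28 ± 0.057 with PA and 11.94 ± 0.087 in control (p = 0.0286), and the 3′ probe set 5.18 ± 0.15 with PA and 5.23 ± 0.12 in control (p = 0.714, exact permutation tests, n = 4 each). For 18S rRNA the middle probe set was 12.91 with PA and 13.03 in control (p = 0.171), the 5′ probe set 14.06 and 14.11 (p = 0.0571) and the 3′ probe set 12.50 and 12.50 (p = 0.886), all exact permutation tests. The labelling used here starts from poly(A) tails, so these signals are no measure of the amount of rRNA in the cells, and whether they move with the members was not tested.

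As a check of the labelled cell type, the keratins KRT8, KRT18 and KRT19 and vimentin (VIM) were bright, at 11.68, 13.57, 12.53 and 14.39 with PA. KRT8 (0.18) and KRT18 (0.19) rose with PA, and the part of this in the members' changes was not tested. By contrast, the epithelial markers EPCAM, CDH1 and KRT7 lay near the floor at 4.18, 4.14 and 4.17, as in a line with mesenchymal features. Of the leukocyte markers PTPRC and MS4A1 did not reach the signal floor. The tested members of the leukocyte and the fibroblast and endothelial lists had a median mean signal of 4.66 (3 genes) and 5.28 (6 genes), with 0 raised and 1 lowered (CD14, -0.52). Their brightest genes were CDH5 (7.93 with PA and 7.54 in control), COL3A1 (7.23 and 7.27) and CD14 (6.83 and 7.35), near the median signal of all genes (7.21). The median signal per array was 5.71 to 5.77 over the 8 arrays, and the standard errors of the members' changes were 0.037 to 0.12, with a median of 0.052, against 0.067 over all genes.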

How the data were processed

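MIA PaCa-2 RNA was measured on 8 Affymetrix Human PrimeView arrays, 4 PA and 4 DMSO, grouped by their labels. The deposited values are log2 signals that the authors made by RMA in Partek (the labels also name GCOS), with background correction, quantile normalization and median polish. Versions, and whether arrays of the study's other cell line entered the normalization, are not given in the sources used here.

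Control probe sets were left out, and probe sets were tested when the higher group mean was at least 4 (38748 of 49395). A gene was read at its single-symbol probe set with the highest mean over the 8 arrays (15226 genes). PA was set against DMSO with lmFit and eBayes of limma 3.58.1 (R 4.3.3), with Benjamini-Hochberg adjustment, and a gene was called below 0.05 whatever its fold. Control probe sets were compared by exact two-sided permutation tests. Promoter windows came from RefSeq (GRCh38.p14). Protein sequences were not analysed here. Figures used Python 3.11.15 and matplotlib 3.10.9.

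The members, roles and lists were chosen with earlier results of these data known, so their direction is not independent evidence, and no set test was made. Values by array are given for up to 4 members of each role with the smallest adjusted p. Other members have their change only. Of other lists the 2 called genes with the largest absolute change are named, and of the MYC network all. The UTP-A, H/ACA, C/D and PeBoW groupings, the genes named for their probe sets or lost calls, CD14 and POLR3GL were picked out after their values were seen.

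Replicate numbers did not pair the samples: deviations of same-numbered arrays correlated at -0.139 to 0.0474. Alternatives were other signal filters, quantile normalization over the 8 arrays, median centring, intensity trend, array weights, the replicate block, an unmoderated ANOVA with Benjamini-Hochberg or Storey-Tibshirani q-values, the mean of a gene's probe sets, each probe set alone, the GC-rich background as covariate, stricter thresholds, and leaving out each array. Array number and the rounding of the signals to 2 decimals limit the precision, and read depth does not apply.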

Additional observations from a re-analysis of the deposited data

Results flagged for a closer look

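Among 114 groups of 4 arrays of members, 7 held 1 array far from the other 3, where chance gives about 1 in 20 groups. FBL was 12.63 in PA 1 and 12.61 in the other PA arrays, and NOL11 was 10.62 in PA 2 and 10.53 in the others. Both gaps are small on the log2 scale, and neither gene passed. LTV1 was 9.73 in PA 2, with 9.63 the next highest. RRP12 was 10.22 in PA 4 with 10.28 the next lowest, NOP2 was 8.48 in PA 4 with 8.63 next, and GNL2 was 10.62 in PA 4 with 10.70 next. GNL2 was also high in control 4, at 10.45 with 10.37 next. LTV1, RRP12, NOP2 and GNL2 were raised and remained so in all 8 fits that left out 1 array. PA 4 and control 4 hold 4 of the 7 such values, each on the side nearer to the other group.

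The probe set that PWP2 shares with LOC102724159 belongs to no tested gene, and it was higher with PA by 0.32 (10.24 ± 0.082 with PA and 9.92 ± 0.093 in control, SD, n = 4 each).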

How the results depend on the processing

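The 0 lowered members and the positive median of all members held under every alternative run. Of the 19 genes given by array, 0 of the 17 that were raised reversed. NPM1 and NCL, which did not pass, were not counted for reversal. Alternatives that alter only the test or the threshold leave the change as it was and could not reverse it. The count of raised members (32) was 24 to 34 under other filters, normalizations, tests and an adjusted p under 0.01, 36 when a gene counted by any probe set, 27 to 31 without 1 array, 6 with the GC-rich background as covariate and 0 at 1.5-fold or more. Of all genes, 3.66% to 12.8% rose under those filters, normalizations, tests and the stricter p, and 6.24% to 9.58% without 1 array. The share was 1.56% with the covariate and 0.466% at 1.5-fold, and was not computed for any probe set. With the covariate the counts raised were 0 for Pol I, 1 for snoRNP, 2 for the small and 2 for the large subunit, with medians of 0.22 for the large subunit and 0.060 for the general nucleolar genes. At 1.5-fold each role had 0. The Pol I count (5) was 1 under the replicate block, 1 at an adjusted p under 0.01 and 1 to 4 without 1 array. Its median was 0.22 after quantile normalization. The snoRNP median was 0.27 over single probe sets and 0.18 to 0.21 without 1 array, and that of the general nucleolar genes 0.07 with the mean of their probe sets. The causes of these shifts were not tested.

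Under the replicate block, a label number that does not pair these samples, 25 members were raised, and POLR1A, TAF1C and POLR1E did not pass (adjusted p = 0.0684, 0.0705 and 0.0713, limma). NOP10 and TBL3 passed after quantile normalization, and GAR1, RRP8 and NOL6 with the mean of their probe sets. The number of arrays, 4 a group, and signals near the top of the scale limit what could be seen for the brightest genes.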

Other observations

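The MYC network, whose proteins bind the E-box as pairs with MAX or MLX, was measured at 9 genes. MYC itself was 12.57 with PA and 12.49 in control, a change of 0.08 (adjusted p = 0.380, limma). Of the 9 genes 0 rose and 2 fell, against 9.69% raised and 11.9% lowered among all genes. Those that fell are MAX partners that oppose MYC: MXI1 fell by 0.51 (adjusted p = 0.00746) and MXD4 fell by 0.42 (adjusted p = 0.00400, limma). The others did not pass, with changes of -0.17 in MGA, -0.17 in MXD3, -0.04 in MLX, -0.03 in MXD1, 0.08 in MNT and 0.12 in MAX. Whether any of these genes has a part in the members' changes was not tested.

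Of 9 measured genes of Pol III, which makes the 5S rRNA and the transfer RNAs, 2 rose and 1 fell, against 9.69% and 11.9% of all genes. POLR3G rose by 0.47 and POLR3GL, the subunit that can stand in its place, changed by -0.31, both past the test, and POLR3K rose by 0.37. The remaining 6 did not pass, and the median over the list was 0.09.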
